A study of Mus musculus with 6 samples.

Results

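Complement is a set of plasma and membrane proteins that tag microbes and dying cells, draw in leukocytes and open membranes. Its classical route begins with C1q bound to immune complexes or to cell surfaces, its alternative route amplifies deposited C3 through factor B and properdin, and both converge on the cleavage of C3 into the signalling peptide C3a and the opsonin C3b. Macrophages make several of the soluble components themselves, C1q above all, and carry the receptors that read out C3a, C5a and opsonised particles. The 9 genes described here, C1qa, C1qb, C1qc, C3, Cfb, Cfp, C3ar1, C5ar1 and Itgam, cover these roles. They were taken by symbol from the authors' deposited gene table, in which they are 9 of 19386 rows, and all 9 carried an adjusted p-value.

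The cells were bone marrow-derived macrophages, grown from marrow freed of red cells in medium with 10% supernatant of L929 cells and harvested on day 11. All mice were wild type on the C57BL/6 strain. One group of 3 libraries came from mice that had breathed room air and the other group of 3 from mice exposed to cigarette smoke, so the comparison asks whether macrophages cultured from marrow differ by what the mouse had inhaled. The age and sex of the mice and the dose and length of exposure are not given in the sources used here. The labels do not say in so many words that the 3 libraries of a group came from separate mice, so p-values measure the spread between libraries, which may be technical. In bulk RNA such as this, fewer cells of a type and less RNA per cell cannot be told apart.

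Levels are means of size-factor-normalized counts per group, so no value of a single library and no spread of a group can be given for expression, and the depth of the libraries is unknown. Fold changes, standard errors and p-values are those of the authors' DESeq2 fit to 24 libraries, 18 of which lie outside the series, and the spread of those 18 entered the standard errors. All 8 macrophage markers examined were expressed, with means in the authors' deposited table from 401 (Mertk) to 23168 (Lyz2) normalized counts in room air and from 348 to 24772 in cigarette smoke. Markers of B cells summed to 6.68 and 4.14 normalized counts, those of T and NK cells to 3.29 and 2.15, dendritic markers to 1.29 and 1.02 and erythroid markers to 0 and 0.508. Of 10 neutrophil markers 4 were listed, summing to 316 and 337, nearly all of it Csf3r at 301 and 317, with S100a8 at 0 and 0.195. Monocyte markers summed to 356 and 396, with Ccr2 at 164 and 98.0, Cx3cr1 at 192 and 297 and Ly6c2 at 0 and 0.894. The 7 stromal markers summed to 45.6 and 10.7, the part of which in the results below was not tested. No marker with an adjusted p was past the threshold. The B cell, T and NK cell, erythroid and dendritic markers had no adjusted p, nor had Ly6c2, S100a8, Ltf and Lum. For those no call was possible in either direction.

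None of the 9 complement genes passed the test between the groups. At an adjusted p under 0.05 in the authors' deposited table (DESeq2, Benjamini-Hochberg), 0 of 9 were higher and 0 of 9 lower after cigarette smoke, where 7.69% of the 12082 genes tested were called, 4.15% as higher and 3.53% as lower. No member reached an unadjusted p under 0.05 either, against 22.8% of all genes tested. Of the 9 deposited log2 fold changes, 7 were above 0 and 2 below, with a median of 0.30 and a range from -0.12 to 0.49. Over all genes tested 49.7% were above 0 and the median was 0.00. The precision of the comparison set what could have been called. The smallest Wald statistic among called genes was 2.89 in size, so a member needed a log2 fold change of between 0.51 (C3ar1) and 1.17 (C3), depending on its standard error.

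C1qa, C1qb and C1qc encode the 3 chains of C1q, the recognition molecule of the classical route. They lie side by side on the minus strand of chromosome 4 in GRCm38, C1qb at chr4:136880129-136886187, C1qc at chr4:136889804-136893065 and C1qa at chr4:136895917-136898803. In the authors' deposited table C1qa averaged 1882 normalized counts after room air and 2501 after smoke, which is 32.9% more. C1qb had 5663 and 6984 in that deposited table, 23.3% more, and C1qc 3705 and 4686, 26.5% more. The means of all 3 chains were higher after smoke, by 23.3% to 32.9%.

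These differences did not pass the test. For C1qa the authors' deposited table gave a log2 fold change of 0.41 (SE 0.22), with a 95% interval of -0.03 to 0.85 and an adjusted p of 0.260, the lowest of the 9 genes. For C1qb it was 0.30 (SE 0.19, interval -0.06 to 0.67, adjusted p 0.337) and for C1qc 0.34 (SE 0.19, interval -0.03 to 0.71, adjusted p 0.273), again from the authors' deposited table. On the linear scale the intervals reached from just under no change to an increase of 1.80-fold, 1.59-fold and 1.63-fold, and each gene would have needed at least 1.45-fold to be called. The genes sit next to each other and were measured in the same libraries, so their 3 values are not independent of each other.

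The 3 C1q transcripts are short and rich in G and C, and in these data both properties went with the fold change. Taken across 12071 genes of the authors' deposited table (genes share the libraries and do not count as replicates), the log2 fold change had a Spearman's rho of 0.483 with GC content and of -0.448 with length, both of the longest transcript. C1qa has a longest transcript of 1040 nucleotides with 59.5% GC, C1qb of 1088 with 57.4% and C1qc of 1203 with 57.5%, where the median gene tested has 3250 nucleotides and 49.4%. A smooth trend in GC content and length, fitted over all genes, took the value 0.42 at C1qa, 0.37 at C1qb and 0.36 at C1qc. What remained of the fold changes without the trend was -0.01, -0.07 and -0.02 on the log2 scale. The sign of all 3 chains thus turned, but each value was smaller than its SE (0.22, 0.19 and 0.19), so no reversal was shown. The adjusted p-values were 0.965 to 0.997. Whether smoke, the composition of the transcripts or a property of the libraries that varies with it moved the C1q values was not tested.

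**Figure D1:**
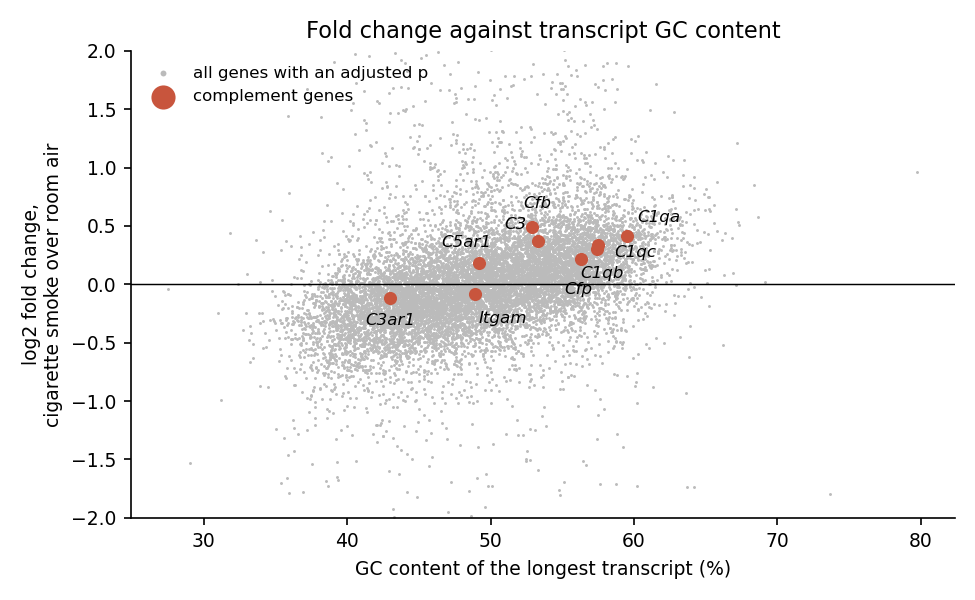
Deposited log2 fold change (cigarette smoke over room air, vertical axis) against the GC content of the longest transcript (percent, horizontal axis) for 11936 genes with an adjusted p (grey); 135 further genes lie beyond the axis limits of -2 and 2. The complement genes (red) lie within the grey cloud, from C3ar1 at 43.0% GC and -0.12 to C1qa at 59.5% GC and 0.41.

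C3, the central component whose cleavage drives every route (chr17:57203970-57228136, minus strand), had group means of 1459.8 normalized counts (room air) and 1888 (smoke) in the authors' deposited table, 29.3% more. The log2 fold change there was 0.37 with an SE of 0.41, an interval of -0.42 to 1.17 and an adjusted p of 0.645. That SE was larger than those of 98.0% of the 972 genes whose mean over both groups lay within 2-fold of that of C3, for which the median SE was 0.14. A change of C3 would have had to reach 2.26-fold to be called. For C3 the trend with transcript composition took almost nothing away: at 53.3% GC and 5136 nucleotides the fitted trend was 0.00, and 0.38 remained without it.

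Cfb encodes factor B, the protease of the alternative route's C3 convertase (chr17:34856374-34862518, minus strand), and had by far the lowest level of the 9. Its mean was 9.87 normalized counts (room air) and 14.9 (smoke) in the authors' deposited table. That is a log2 fold change of 0.49 (SE 0.40, interval -0.30 to 1.28, adjusted p 0.507). It was the largest of the 9 as deposited, but not under 2 of the alternatives: 0.36 remained without the GC and length trend, where C3 had 0.38, and the log2 ratio of the group means with a pseudocount of 10 was 0.32, where C1qa had 0.41. Its exons are shared on the same strand with the predicted gene Gm20547, and how the authors' counting treated shared reads is not given in the sources used here, so the level of Cfb is uncertain.

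Cfp encodes properdin, which stabilises the alternative convertase (chrX:20925454-20931555, minus strand). Group means in the authors' deposited table were 1791 normalized counts (room air) and 2082 (smoke), 16.3% more, with a log2 fold change of 0.22 (SE 0.30, interval -0.38 to 0.81, adjusted p 0.737). Like C3, Cfp had a wide error for its level, larger than that of 94.2% of 782 genes of like mean. With 56.3% GC and 1636 nucleotides its fitted trend was 0.30, and -0.08 remained after its removal. Here too the sign turned, to a value smaller than the SE.

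The 3 receptors had log2 fold changes on either side of 0, whose difference from the soluble components was not tested. C3ar1, the receptor of C3a (chr6:122847138-122856161, minus strand), averaged 5682 normalized counts (room air) and 5213 (smoke) in the authors' deposited table, a difference of -8.26%. C5ar1, the receptor of C5a (chr7:16246743-16259540, minus strand), had 2846 and 3228 in that deposited table, 13.4% more. Itgam, the CD11b chain of complement receptor 3, which takes up particles coated with cleaved C3b (chr7:128062640-128118491, plus strand), had 4350.1 and 4107, a difference of -5.59%, in the authors' deposited table. The exons of Itgam are shared on the same strand with the predicted gene Gm49368, so its count is uncertain in the same way as that of Cfb.

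None of these passed the test. On the log2 scale the authors' deposited table gave -0.12 for C3ar1 (SE 0.18, adjusted p 0.737), 0.18 for C5ar1 (SE 0.19, adjusted p 0.635) and -0.08 for Itgam (SE 0.20, adjusted p 0.864). As ratios of smoke to room air the 95% intervals ran from 0.724 to 1.16 for C3ar1, from 0.873 to 1.47 for C5ar1 and from 0.720 to 1.24 for Itgam. Without the GC and length trend the values were 0.06, 0.11 and 0.00, the first with a turned sign and each smaller than its SE. Over all 9 genes the median was then 0.00 in place of 0.30, and 4 were above 0.

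**Figure D2:**
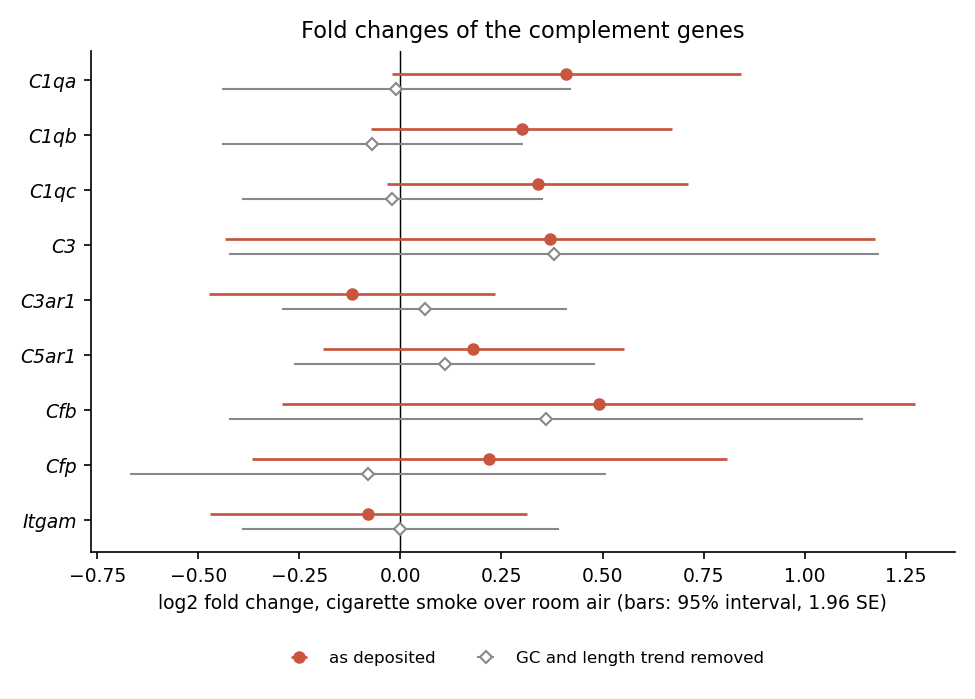
Log2 fold change of cigarette smoke over room air for each complement gene, as deposited by the authors (red circles) and after a trend in transcript GC content and length was removed (open grey diamonds); bars are 95% intervals of 1.96 standard errors. Every interval includes 0, and the C1q chains and Cfp move to the left of 0 without the trend.

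Per kilobase of longest transcript, the scale on which levels of different genes can be compared, C1q led in both groups. In room air C1qb stood at 5205 normalized counts per kilobase, C1qc at 3079.9 and C1qa at 1809.7. They were followed by C3ar1 at 1319.8, C5ar1 at 1121 and Cfp at 1095, with Itgam below them, then C3 at 284 and Cfb at 3.59, all computed from the authors' deposited means. In cigarette smoke the first 3 and the last 3 kept their places, at 6419, 3895 and 2405 and at 877, 368 and 5.41 normalized counts per kilobase. In the middle Cfp at 1273 and C3ar1 at 1211 exchanged places, with C5ar1 at 1271 between them in both groups. No spread over libraries was available, so which neighbours differ beyond it cannot be said. The level of C1qc depends on the gene model: over the union of all its annotated exons it was 1919 normalized counts per kilobase in room air in place of 3079.9, still in second place. The middle order in cigarette smoke depends on it too. Over union exons C5ar1 stood at 1256, C3ar1 at 1211 and Cfp at 1199, so that Cfp did not rise above C3ar1.

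The same table allows the mean of the 18 libraries outside the series to be worked out from the 24-library mean. C3 averaged 14820.2 normalized counts in those libraries and Cfb 659.6, which is 10.2 and 66.8 times their room air means and 7.85 and 44.3 times their smoke means in the authors' deposited table. For the other 7 genes the ratio to room air lay between 1.01 and 1.94 and that to smoke between 0.902 and 1.71. A mean at least 5-fold above both groups was found for 5.70% of all genes tested. The conditions of those 18 libraries are not analysed here, and their part in the wide standard error of C3 was not tested.

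**Figure D3:**
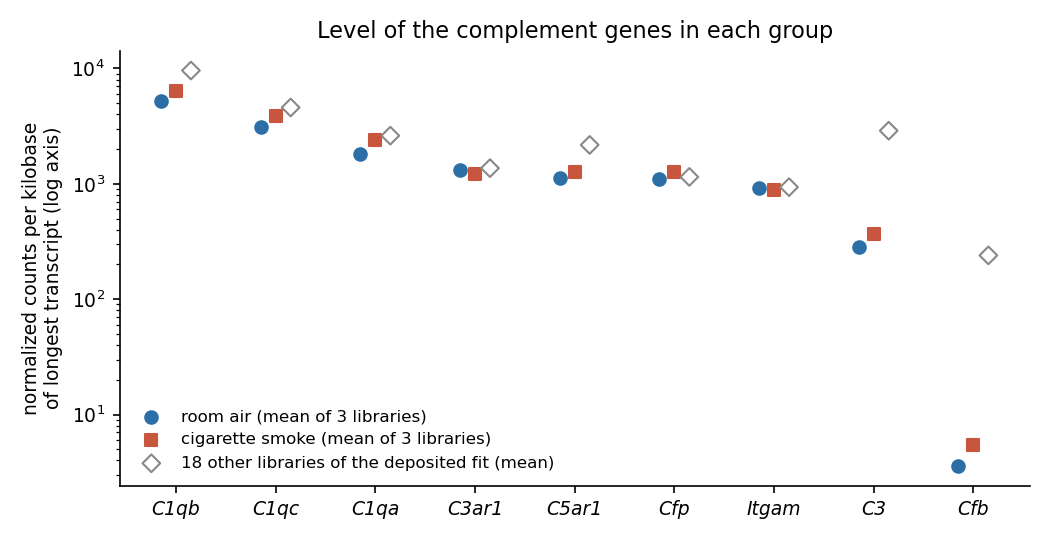
Normalized counts per kilobase of longest transcript (log axis) for each complement gene, as the authors' mean of the 3 room air libraries (blue circles), of the 3 cigarette smoke libraries (red squares) and as the mean worked out for the 18 libraries outside the series (open diamonds). Blue and red lie close together for every gene, while C3 and Cfb are far higher in the 18 other libraries.

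The rest of the pathway was taken from a list of 49 symbols, of which 29 were in the authors' deposited table and 14 carried an adjusted p. Of these 14, 0 were called higher and 0 lower, and the median log2 fold change was 0.16 beside 0.00 over all genes tested. At an unadjusted p under 0.05 there were 3, 1 of them higher and 2 lower, where 22.8% of all genes tested reached it. Of the 14, Serping1 had group means of only 0.618 and 0.899 normalized counts and Cd55 of 5.56 and 4.19. Their 24-library means of 12.7 and 21.6 rest on the 18 other libraries, which averaged 16.7 and 27.2. Serping1 would have needed a 14.6-fold change to be called, so its result says little about these groups. The 15 genes without an adjusted p had group means of at most 7.57 normalized counts. Among these were the classical components C2, C4a, C4b and C1s1 and the gene of C5, Hc. Of the components that follow C5, C8g was the one listed, at 2.44 and 7.23 normalized counts in the authors' deposited table.

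One part of the list held initiators and proteases of the classical and lectin routes with related genes. Those with an adjusted p were C1ra, the gene of the protease C1r, the ficolin gene Fcna and the collectin family gene Colec12. A role of Colec12 in starting the lectin route was not examined. None of them was called, with log2 fold changes of 0.23 to 0.34 in the authors' deposited table. Without the GC and length trend Fcna turned from 0.23 to -0.07, Colec12 went from 0.34 to 0.66 and C1ra from 0.24 to 0.17. Of the regulators, 5 had an adjusted p and none was called. Cr1l, the rodent membrane regulator also called Crry, had means of 392 and 345 in the authors' deposited table, which gave -0.18 (SE 0.10, adjusted p 0.305) on the log2 scale. Its sign turned too when the trend was removed, to 0.08, a value smaller than its SE. Itgax and the other genes of this list with means under 1000 were chosen for naming after their values were seen.

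Receptors and partners held the 2 lowest p-values of the list. Itgax encodes CD11c, the alpha chain of complement receptor 4, and is also used as a dendritic cell marker. The authors' deposited table listed it at 31.7 normalized counts (room air) and 108 (smoke). On the log2 scale the authors' deposited table gave 1.79 for it (SE 0.63, interval 0.55 to 3.03), and the adjusted p of 0.0571 missed the threshold. That SE was larger than those of 97.0% of 3668 genes of like mean, for which the median SE was 0.24. When p-values were adjusted only over genes with a 24-library mean of at least 50, the adjusted p of Itgax became 0.0468, and over the other alternatives it ran up to 0.153. That highest value came without the GC and length trend, where the log2 fold change of Itgax was 1.77 and its unadjusted p 0.00514, against 0.00480 as deposited. Summed dendritic markers were 1.29 and 1.02 normalized counts, and Flt3, Cd209a and Ccr7 were not listed. Within that sum Zbtb46 had 0.322 (room air) and 1.02 (smoke), Xcr1 0.200 and 0 and Siglech 0.767 and 0. None of them had an adjusted p, and a part of dendritic cells in the Itgax values was not tested. Cd93, a membrane glycoprotein first described as a receptor of C1q, had means of 3943 and 3019 in the authors' deposited table and -0.39 (SE 0.15, adjusted p 0.0923) on the log2 scale. Without the trend -0.19 remained for Cd93, and the unadjusted p went from 0.0111 to 0.202.

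The beta chain that pairs with both CD11b and CD11c, Itgb2, had 3074 and 3361 normalized counts in the authors' deposited table and 0.13 (SE 0.13, adjusted p 0.623) on the log2 scale. Calr, which encodes calreticulin, a chaperone that can bind C1q at the cell surface, had 3971 and 3689.7 in the authors' deposited table, with -0.11 on the log2 scale (SE 0.14, adjusted p 0.724). The second C5a receptor, C5ar2, had 109 and 132 normalized counts in the authors' deposited table, with 0.28 on the log2 scale (SE 0.30, adjusted p 0.622). Removing the trend left 0.01 for Itgb2, -0.22 for Calr and 0.28 for C5ar2.

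**Figure D4:**
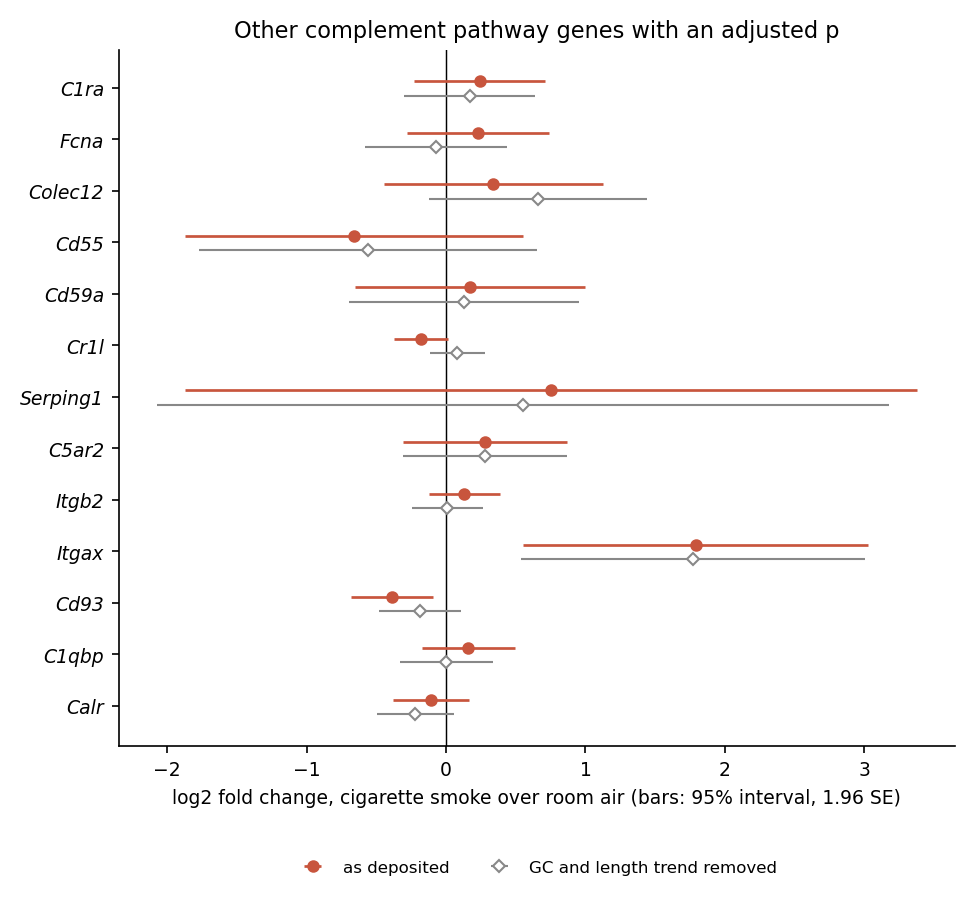
Log2 fold change of cigarette smoke over room air for 13 of the 14 other complement pathway genes with an adjusted p, as deposited by the authors (red circles) and with the trend in GC content and length removed (open diamonds); bars are 95% intervals. Itgax lies to the right of 0 and Cd93 to the left as deposited, and none of those drawn passed an adjusted p of 0.05.

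Splicing was where complement genes passed a threshold. The authors' deposited rMATS table compares the retention of introns between sample set 1 and sample set 2, without saying which set is room air, so the size of a difference can be given but not the group that had more. It held 5 introns in 3 of the 9 genes, of which 3 introns in 2 genes, C1qc and Cfp, passed the table's false discovery rate (FDR) of 0.05. Over all 3887 introns listed, 14.5% passed. The other 6 genes had no intron in the table, and of the 3 introns in other pathway genes (C4a, C8g and Cd55) none passed.

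In Cfp both called introns end at the last exon, at the same acceptor. The longer one, chrX:20925760-20927280 (1521 nucleotides), is the last intron of the coding transcript Cfp-201. The shorter one, chrX:20925760-20927180 (1421 nucleotides), is the last intron of Cfp-202, a transcript without an annotated reading frame that splices from a donor 100 bases further on. The bases around both donors, from the GENCODE transcripts on GRCm38 (minus strand, printed 5′ to 3′), show how the spliced forms differ. The first line runs from the last 30 bases of the Cfp-201 exon through the 100 bases that only Cfp-202 keeps (chrX:20927181-20927310), and its capitals mark GT, the start of the Cfp-201 intron, with the first in-frame stop codon, TGA, overlapping it. The others give 30 bases on each side of the exon junction of each transcript.
Cfp donor region: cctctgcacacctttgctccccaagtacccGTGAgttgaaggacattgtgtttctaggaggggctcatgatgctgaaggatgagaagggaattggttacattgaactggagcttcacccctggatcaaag
Cfp-201 junction: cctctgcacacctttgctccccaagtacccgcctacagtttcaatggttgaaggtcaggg
Cfp-202 junction: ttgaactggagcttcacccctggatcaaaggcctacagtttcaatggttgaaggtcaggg

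A reading frame that runs on from Cfp-201 into the kept bases meets that stop codon by base 4, whether the whole intron stays or only the 100 bases do. The retention level of the longer intron differed between the sets by 1.50 percentage points in the authors' deposited table (FDR 0.000571). For the shorter one the authors' deposited table gave 28.9 points (FDR 0.00290), with the same sign, which 95% of all called introns shared. Among the called introns of the authors' deposited table only 5.13% had a difference at least that large, and the median size was 5.50 points. The 2 values are not independent, since the shorter intron lies inside the longer and both count the reads within it. The shorter one is an annotated intron of Cfp-202 only, so its 28.9 points are not a share of all Cfp transcripts. Retention levels and read counts of the sets are not given here, and size alone says little without them. The C8g intron, which was not called, differed by 78.5 points in the authors' deposited table. The Cfp interval that was not called, chrX:20927652-20927952, contains 72 bases of a coding exon and had a difference of 1.20 points (FDR 1.00) in the authors' deposited table.

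**Figure D5:**
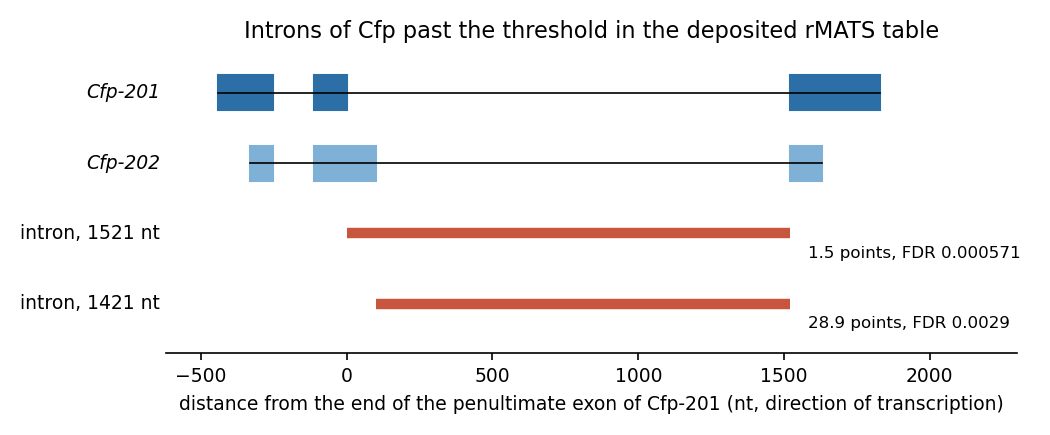
Exons (blue boxes) at the 3′ end of the annotated transcripts Cfp-201 and Cfp-202 and the introns (red) past the threshold in the authors' deposited rMATS table, by distance in nucleotides from the end of the penultimate Cfp-201 exon. The introns share their right end and differ by 100 nucleotides at the left, with differences between the sets of 1.50 and 28.9 percentage points.

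C1qc had its called intron between the last exons of C1qc-201, chr4:136890600-136892378 (1779 nucleotides), inside the coding sequence. The difference between the sets was 0.700 points in the authors' deposited table (FDR 0.000201), well under the median size of called introns. Another annotated transcript, C1qc-202, reads 728 bases into this intron, so reads of that form count as retention. The donor, read from that transcript on GRCm38 (chr4:136892287-136892408, minus strand), is shown to place the stop that retention would bring into frame. Capitals mark the GT that opens the intron and the first in-frame stop codon, which ends 89 bases in.
C1qc donor region: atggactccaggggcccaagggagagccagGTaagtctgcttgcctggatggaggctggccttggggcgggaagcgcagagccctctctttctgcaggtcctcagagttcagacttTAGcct

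The interval listed for C1qb, chr4:136880870-136886042, spans a coding exon and is no annotated intron. Its difference was 0.600 points in the authors' deposited table (FDR 1.00). The authors' merged transcript assembly joined C1qb and C1qc into 1 locus through 1 transcript with exons of both. The gene table is indexed by Ensembl gene and kept them apart.

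Inclusion levels of splicing events in each library, deposited by the authors as JuncBASE output, held 1 event in these genes, in C3. It is typed as an alternative last exon. The annotated junction chr17:57204551-57205296 is set against an unannotated one, chr17:57204387-57205296, that joins further downstream. The 3 room air libraries showed an inclusion of 98.3%, 97.5% and 100.0%, in replicate order, and the 3 smoke libraries one of 100.0%, 95% and 98.5%. The groups overlapped, at 98.6% ± 1.26 (SD, n = 3) and 97.8% ± 2.57 (SD, n = 3), and limma on log2 odds gave a difference of -0.24 (SE 0.85) with an adjusted p of 0.911. Leaving out room air replicate 3 turned the difference to 0.31 and leaving out cigarette smoke replicate 2 to 0.43. In the other pathway genes 10 events lay in Cr1l and Itgb2, and none was called, with adjusted p-values from 0.524 to 0.976. Over all 10376 events 0% were called by limma, while 10.8% had an unadjusted p under 0.05; among the 11 complement events none did.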

How the data were processed

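RNA of 6 cultures was sequenced on an Illumina instrument after a directional library kit, per the labels' protocols. The submitters' processing notes name STAR, DESeq2, SAMtools 1.9, bedtools 2.27.1 and the build mm10. The counting program, its strand setting and the filters are not given in the sources used here. The gene table deposited by the authors holds signal values (means of normalized counts of each group and of 24 libraries), log2 fold changes with standard errors, a Wald score and p-values, per the file headers. For 7291 genes with a p-value and a 24-library mean of at most 8.52 it gives no adjusted p. The authors also deposited percent inclusion of events per library (JuncBASE), whose difference of medians is a score in percentage points, and rMATS differences and p-values of retained introns; 6 rMATS columns of per-sample values were not used, because their sets are not named. Merged Cufflinks transcripts were deposited by the authors too.

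No per-library expression was at hand, so the planned count test was replaced by the authors' deposited comparison at an adjusted p under 0.05. Intervals are the fold change ± 1.96 SE. Positions, lengths and sequences came from GENCODE M21 (GRCm38, the same assembly as mm10), and GC content and length were found for 99.9% of genes with an adjusted p. A trend of the fold change in both was estimated with natural splines (4 degrees of freedom each, weights 1/SE squared; statsmodels 0.14.6 with patsy 1.0.2). New p-values came from each gene's residual over its SE. JuncBASE levels p in percent were fitted as log2((p + 1)/(100 - p + 1)) over all 10376 events with limma 3.58.1 in R 4.3.3 and adjusted by Benjamini-Hochberg. Both fits were tested on simulated data. Events and introns were assigned to genes by position and strand.

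Alternatives changed the genes adjusted over, the centring, the pseudocounts, the gene length, the thresholds and the libraries. The members and lists were chosen with earlier results of these data known. Named were all 9 members with all their events and introns, and of the other pathway genes those past the threshold (none) or with a group mean of at least 1000 normalized counts; further ones were chosen after their values were seen, and 1 is not reported here.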

Additional observations from a re-analysis of the deposited data

Results flagged for a closer look

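C3 and Cfb had a signal in data outside the comparison. Their means over the 18 libraries of the authors' fit that lie outside the series were 14820.2 and 659.6 normalized counts, at least 5-fold above both groups, while the other 7 complement genes had at most 1.94 times the room air mean. What those libraries are was not analysed here.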

How the results depend on the processing

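No complement gene of the 9 was called under any of the 4 other ways of adjusting or centring, where the lowest adjusted p was 0.838 with the trend in GC content and length removed, 0.391 with no filter on low values, 0.227 at a 24-library mean of at least 50 and 0.254 after centring. Removing the trend turned the sign of 5 log2 fold changes, to -0.01 for C1qa, -0.07 for C1qb, -0.02 for C1qc, -0.08 for Cfp and 0.06 for C3ar1, and among the other pathway genes named here those of Fcna (-0.07) and Cr1l (0.08). Each of these values was smaller than its SE. Over all genes the calls, 502 higher and 427 lower as deposited, came to 153 without the trend. Of the other pathway genes 1, Itgax, was called at a 24-library mean of at least 50. With union exon lengths 3 genes, Cfp, C5ar1 and C3ar1, took another rank in cigarette smoke. A minimum difference of 10 percentage points left 1 of the 3 called introns, the shorter one of Cfp. Leaving out 1 library moved the C3 event between -0.90 and 0.43, with 0.31 without room air replicate 3. Without cigarette smoke replicate 3, limma called 1131 of the events over all genes in place of 0, none of them in a complement gene; with events measured in all 6 libraries it called 23, again none.

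Libraries with the same replicate number did not deviate together (correlations 0.018, -0.040 and -0.089 over 5933 events), so the numbers were not taken as pairs; with a replicate block 0 complement events were called, as without it. Depth is unknown for every library. With 3 libraries in each group and no expression value of a single library, leaving out a library was possible for the JuncBASE events only.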
